A study of Mus musculus with 12 samples.

Results

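A set of 36 genes of antioxidant defence, glutathione metabolism and iron handling, given as a list of names, was described across the cells of mouse breast tumors. The members, 36 of 31053 genes in the deposited matrices, were followed in macrophages, dendritic cells (DCs), neutrophils, tumor cells, CD8 T cells and regulatory T cells (Treg). The single cell RNA sequencing data came from spontaneous tumors of MMTV-PyMT mice, in which the polyoma middle T oncogene is driven in mammary epithelium, and the mice received no additional treatment. Mice were either wild-type for protease activated receptor 2 (PAR2) or carried the PAR2 G37I mutation, with 3 biological replicates of each genotype for CD11c+ cells and 3 for T cells. Cells were bead-selected from digested tumors, CD11c+ cells from late-stage and CD4/CD8 T cells from mid-size tumors, and were frozen and thawed before the 10x Genomics libraries were made.

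The deposited data were 1 count matrix per selection, each pooling 6 samples under barcodes that carried no sample name, so that no cell could be placed with a genotype and wild-type and PAR2 G37I mice were not compared. Each matrix was therefore 1 sample and no test was possible. The barcodes of each matrix ran through the alphabet 6 times, and the 6 stretches, called barcode runs here, were not linked to a mouse or a genotype. The range over runs with at least 10 cells is given as a description of spread.

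Cells need reducing power to remove peroxides. Peroxiredoxins reduce peroxides and are recharged by thioredoxin and thioredoxin reductase, while glutathione peroxidases draw on glutathione, which is made from cystine imported by Slc7a11 and is kept reduced by glutathione reductase (Gsr). The transcription factor Nrf2 (gene Nfe2l2), held in check by Keap1, switches on many of these genes. In macrophages, heme from engulfed cells is opened by Hmox1, biliverdin is reduced by Blvra and Blvrb, the freed iron is stored in ferritin (Fth1 and Ftl1) or exported by Slc40a1, and new iron enters through the transferrin receptor Tfrc.

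Nrf2 binds a short antioxidant response motif, and the promoter stretches of 3 members that held motif letters are shown here as examples. Other members with looser letters, among them Gclm, Prdx5 and Blvrb, are not shown. RefSeq promoter windows on GRCm38.p6 were found for 31 of the 36 members, and the 250 bases before each start were read on both strands. The full letters TGANTCAGC stood in 1.02% of all 32851 windows and in 2 of the 41 member windows (4.88%), those of Srxn1 and Prdx1. The looser letters TGANNNNGC, which include the full ones, stood in 35.2% of all windows and in 16 of the 41 member windows (39.0%), a share near the background. The stretches are those of Srxn1 at chr2:152105459-152105507 (plus strand), Prdx1 at chr4:116685446-116685494 (plus strand) and Slc7a11 at chr3:50443630-50443730 (minus strand). Capitals mark matches on either strand, of the full letters in Srxn1 and Prdx1 and of the looser letters in Slc7a11. A further match of the looser letters in the Srxn1 stretch is left in lower case. Slc7a11 held looser letters only. A match is a description of the letters and not of binding.
Srxn1: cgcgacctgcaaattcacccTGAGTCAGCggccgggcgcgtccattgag
Prdx1: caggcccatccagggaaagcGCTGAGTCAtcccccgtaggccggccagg
Slc7a11: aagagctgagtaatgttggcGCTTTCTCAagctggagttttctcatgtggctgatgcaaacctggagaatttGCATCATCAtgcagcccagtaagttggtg

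Cells were gated on raw counts of unique molecular identifiers (UMIs) of marker genes outside the member list. In the CD11c+ matrix this gave 2098 macrophages, 859 DCs, 101 neutrophils and 268 tumor cells among 11639 cells, and 71.0% of cells fell in no gate. The macrophages held 166 cells with both Lyve1 and Cd209f, the tissue-resident markers, 325 with both Gpnmb and Spp1, and 1333 with both Thbs1 and Vegfa. Cells that met more than 1 of these definitions counted only among the macrophages as a whole. In the T cell matrix of 22806 cells the gates held 14925 CD8 T cells, 114 Treg, 548 macrophages and 259 tumor cells. The gates carried genes they were not chosen on: Folr2 stood at 1212 CPM (counts per 1000000, the gene's summed UMIs over all UMIs of the gate) in the Lyve1/Cd209f gate, Fabp5 at 3528 in the Gpnmb/Spp1 gate, and Ctla4 at 1131 and Ikzf2 at 1468 in Treg. The CD11c+ matrix held 123642015 UMIs, between 13314063 and 24245504 per run, and the T cell matrix 135965765, between 16222260 and 30182353. Across runs, 76 barcodes in the CD11c+ matrix and 51 in the T cell matrix appeared in more than 1 run. In the T cell matrix, run 3 held 406 of the 548 macrophages, and results on these are given with and without it.

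A ratio between gates is given with an exact 95% interval that covers counting error alone, and a gene was called at 2-fold where the mean CPM of both gates was at least 10. A gene very low in 1 gate passed this filter only through the other, and its call was then set by the filter. This held for Mgst1 and Gstm1 in DCs, Keap1, Blvra and Slc40a1 in neutrophils, Slc7a11, Slc11a1 and Nqo1 in tumor cells, and Srxn1 in Treg. It also held for 6 of the 24 members higher in macrophages than in CD8 T cells, which were Srxn1, Gpx3, Slc7a11, Gstm1, Slc40a1 and Slc11a1. Some other called members were also under 10 CPM in 1 gate and passed only through the other. These were Gsr and Gpx3 in comparisons with Lyve1/Cd209f macrophages, Prdx3 in neutrophils, Gss in tumor cells and Prdx4 in Treg. Prdx4, Mgst1 and Blvrb in macrophages over CD8 T cells were further ones. The direction of all these calls was fixed in this way, so they are not support for a pattern. They stay in the member counts, and all genes of the background passed the same filter. How reads shared with processed copies were assigned is not given in the sources used here, and the ferritins have such copies.

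Iron storage and heme breakdown separated the macrophages. Ferritin transcripts, Fth1 and Ftl1 together, made up 1.82% of all UMIs in Lyve1/Cd209f macrophages, 4.92% in Gpnmb/Spp1 macrophages and 2.15% in Thbs1/Vegfa macrophages. Outside the macrophages they made up 2.44% in neutrophils, 1.23% in cDC2, 0.845% in migratory DCs, 0.489% in cDC1 and 0.415% in tumor cells. Macrophages with Gpnmb and Spp1 thus gave the largest share of their RNA to ferritin among these gates.

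Fth1, the ferritin heavy chain that oxidizes iron for storage (chr19:9980598-9985098, mm10), reached 30264 CPM in Gpnmb/Spp1 macrophages, with runs between 20353 and 35322 and a median of 31280. In Lyve1/Cd209f macrophages it stood at 10234 CPM, with runs between 7583 and 13251 and a median of 10513, so the runs of these gates did not overlap. Thbs1/Vegfa macrophages lay at 14883 CPM, with runs between 9796 and 21730, which overlapped both. The light chain Ftl1 (chr7:45457944-45459884) stood at 18966 CPM in the Gpnmb/Spp1 gate (runs 10437 to 21344), 7940 in the Lyve1/Cd209f gate (runs 5384 to 9238) and 6574 in the Thbs1/Vegfa gate (runs 5746 to 7878). The light chain was 2.39-fold (interval 2.35 to 2.43) higher in the Gpnmb/Spp1 than in the Lyve1/Cd209f gate, and the heavy chain 2.96-fold (2.92 to 3.00), each in 6 of 6 runs.

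Hmox1, the enzyme that opens the heme ring and releases iron (chr8:75093621-75100589), followed another order. It stood at 1580 CPM in Lyve1/Cd209f macrophages, with runs at a lowest of 1121, a median of 1444 and a highest of 2299. In Gpnmb/Spp1 macrophages it stood at 1121 CPM, with runs between 291 and 2037, so that these gates overlapped widely. Thbs1/Vegfa macrophages had 212 CPM, with runs between 137 and 241, below every run of the other macrophage gates. Hmox1 was 7.45-fold (7.13 to 7.79) lower there than in the Lyve1/Cd209f gate, in 6 of 6 runs. Blvrb, the flavin and biliverdin reductase, had the same order, at 357, 247 and 94.4 CPM. The transferrin receptor Tfrc marked off the Lyve1/Cd209f gate, at 77.7 CPM (runs 61.7 to 116) against 11.3 in the Gpnmb/Spp1 gate and 12.5 in the Thbs1/Vegfa gate, 6.86-fold (5.24 to 9.05) and 6.24-fold (5.13 to 7.58) apart. Lyve1/Cd209f macrophages thus had a smaller ferritin share than Gpnmb/Spp1 macrophages together with more transcripts of the iron importer.

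**Figure D1:**
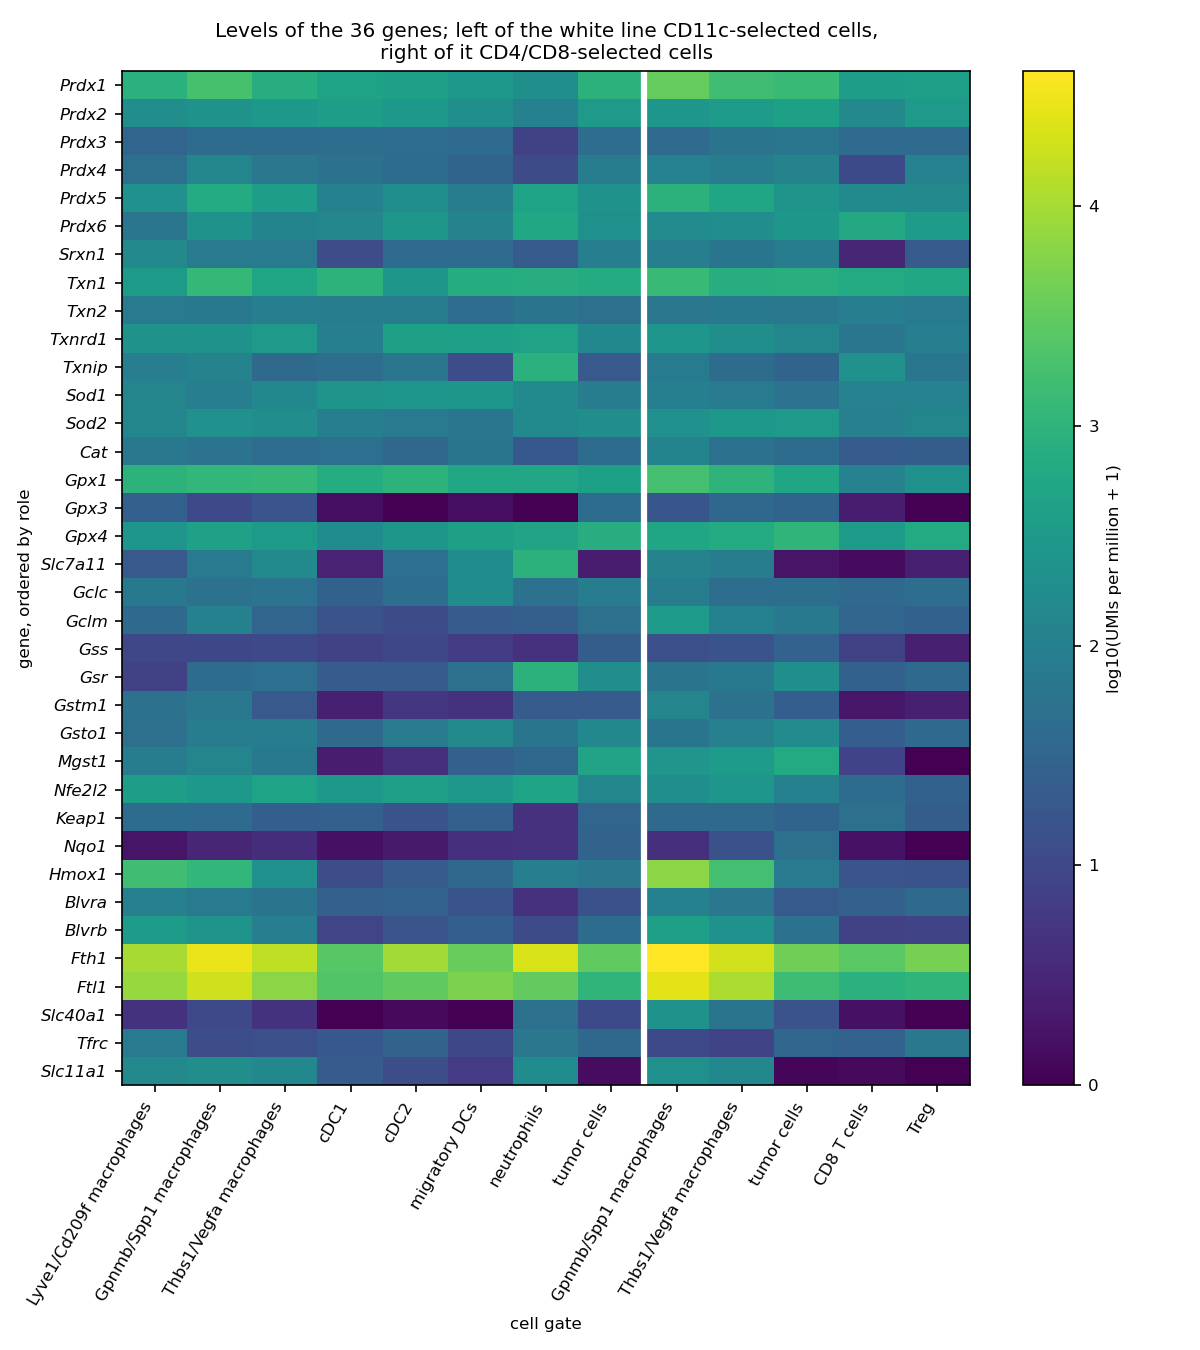
Heat map of log10(CPM + 1) for the 36 members (rows) in 8 gates of the CD11c+ matrix and 5 of the T cell matrix (columns). In the CD11c+ matrix the Fth1 row is brightest in Gpnmb/Spp1 macrophages at 30264 CPM, followed by neutrophils at 21227, against 3107 in tumor cells.

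Over the 33 members that passed the CPM filter, 10 were at least 2-fold higher and 2 at least 2-fold lower in Gpnmb/Spp1 than in Lyve1/Cd209f macrophages, where 9.02% and 11.8% of 7384 genes were. The median log2 ratio was 0.38 for the members against -0.00 for all genes. Besides the ferritins, the higher members were peroxide-reducing and thiol genes. Thioredoxin itself (Txn1), the small protein that recharges peroxiredoxins, stood at 324 CPM in the Lyve1/Cd209f and 1183 in the Gpnmb/Spp1 gate, 3.65-fold (3.39 to 3.93) apart with runs between 2.74-fold and 4.44-fold. Among the peroxiredoxins, Prdx1 was 2.14-fold (2.04 to 2.24), Prdx4 2.68-fold, Prdx5 3.30-fold (3.01 to 3.62) and Prdx6 3.63-fold (3.08 to 4.30) higher. Prdx2 and Prdx3 stayed under 2-fold, and the Prdx1 call was lost under 2 other settings. Gclm, the regulatory subunit of the first enzyme of glutathione synthesis, was 2.97-fold higher in 5 of 6 runs, while its catalytic partner Gclc stood at 73.1 CPM in the Lyve1/Cd209f and 52.6 CPM in the Gpnmb/Spp1 gate. The members lower in the Gpnmb/Spp1 gate were Tfrc and the secreted glutathione peroxidase Gpx3. Gpx3 was 2.64-fold (1.82 to 3.81) lower in 5 of 6 runs and passed the filter only through the Lyve1/Cd209f gate. Its log2 ratio of -1.40 became -2.01 without run 4, and -0.68, under 2-fold, with the gate markers raised by 1 UMI.

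Thbs1/Vegfa macrophages differed from the Lyve1/Cd209f gate in fewer members, 2 higher and 5 lower of 33, with 9.08% and 10.7% of 7359 genes as background. The higher members were the cystine importer Slc7a11 and Gsr, which regenerates glutathione. Slc7a11 (chr3:49892526-50443614) stood at 18.3 CPM in the Lyve1/Cd209f gate with runs between 2.89 and 40.5, at 80.2 in the Gpnmb/Spp1 gate with runs between 46.6 and 140, and at 153 in the Thbs1/Vegfa gate with runs between 115 and 183. The Lyve1/Cd209f runs lay below all others, and the other gates overlapped. The ratio was 8.39-fold (6.23 to 11.6) for the Thbs1/Vegfa and 4.39-fold (3.22 to 6.11) for the Gpnmb/Spp1 gate over the Lyve1/Cd209f gate. Gsr was at 7.06, 42.3 and 47.6 CPM in the same order of gates. The lower members were Hmox1, Blvrb, Tfrc, the glutathione transferase Gstm1 (2.82-fold) and Txnip, the inhibitor of thioredoxin (2.50-fold, in 5 of 6 runs).

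Between Gpnmb/Spp1 and Thbs1/Vegfa macrophages, 9 of 33 members were higher in the Gpnmb/Spp1 gate and 0 lower, with 4.93% and 7.07% of all genes as background, and each of the 9 was higher in 6 of 6 runs. They covered heme breakdown (Hmox1 5.28-fold, with runs between 1.43-fold and 9.32-fold, and Blvrb 2.62-fold), iron storage (Ftl1 2.89-fold, Fth1 2.03-fold), glutathione (Gstm1 3.72-fold, Gclm 3.52-fold) and thioredoxin (Txnip 3.02-fold, Prdx1 2.57-fold, Txn1 2.26-fold). Fth1 lay close to the threshold and fell under 2-fold under several settings. Nfe2l2 itself did not follow this order, at 390, 282 and 481 CPM in the Lyve1/Cd209f, Gpnmb/Spp1 and Thbs1/Vegfa gates. Sulfiredoxin (Srxn1), which repairs over-oxidized peroxiredoxins and shares the full promoter letters with Prdx1, stood at 146, 74.5 and 78.4 CPM in that order, whereas Prdx1 stood at 887, 1894 and 737.

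**Figure D2:**
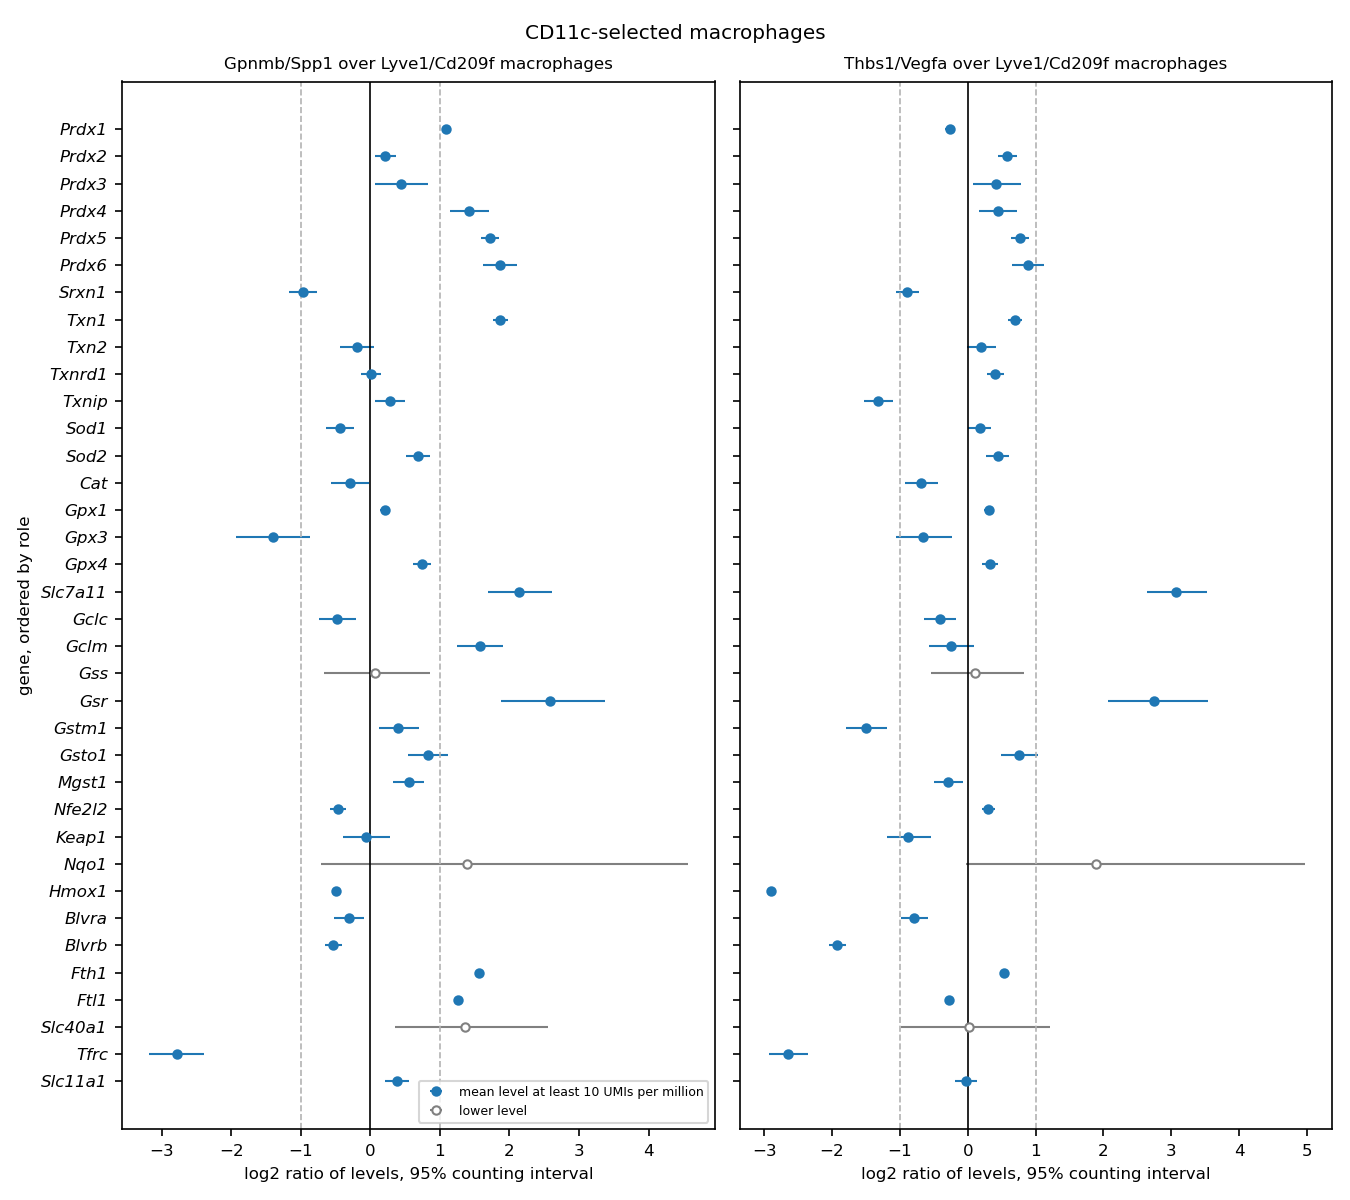
Log2 ratio of each member in Gpnmb/Spp1 and in Thbs1/Vegfa macrophages over Lyve1/Cd209f macrophages, with 95% counting intervals as bars, open grey points for members under a mean of 10 CPM and dashed lines at 2-fold. Slc7a11 and Gsr lie on the higher side in both gates, Tfrc on the lower side in both, and Hmox1 is lower in Thbs1/Vegfa macrophages at 7.45-fold. The direction of Gsr was fixed by the filter.

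Epithelial transcripts were present in the macrophage gates and moved with them. The mammary epithelial genes Wfdc18 and Csn3 stood at 693 and 433 CPM in Thbs1/Vegfa macrophages, which was 8.92% and 8.53% of their level in tumor cells, and Wfdc18 stood at 64.8 CPM in the Lyve1/Cd209f and 30.4 CPM in the Gpnmb/Spp1 gate. Their part in the member ratios was not tested. With the macrophages that carried Epcam, Krt8 or Krt18 UMIs left out, 1 of 109 member calls fell under 2-fold and 27 were counted as moved. The 109 calls covered every comparison with macrophages, and Csn3 and Wfdc18 UMIs were not used to leave cells out.

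The other pathway genes, in 4 lists, were counted in the same way, to be read against the 9.02% higher and 11.8% lower of all genes for Gpnmb/Spp1 and the 9.08% and 10.7% for Thbs1/Vegfa over Lyve1/Cd209f macrophages. Of the iron and heme list 4 of 22 were higher and 7 lower in Gpnmb/Spp1 than in Lyve1/Cd209f macrophages, the lower ones including ceruloplasmin (Cp, 23.1-fold), a ferroxidase, and the hemoglobin scavenger receptor Cd163 (259-fold). Of the Nrf2 and NADPH list 4 of 15 were higher and 3 lower, among the latter Bach1, a heme-sensing repressor of Hmox1, at 4.69-fold. Of the glutathione and repair list 4 of 15 were higher and 2 lower, with Gstp1 5.24-fold lower, and of the 6 phagocyte NADPH oxidase genes 1 was higher. Thbs1/Vegfa against Lyve1/Cd209f macrophages gave 2 higher and 7 lower of 23 iron and heme genes, with the siderophore-binding Lcn2 35.5-fold and lactoferrin (Ltf) 86.3-fold higher. Lcn2 and Ltf were also transcripts of the tumor cells, where Ltf stood at 1467 CPM against 179 in the Thbs1/Vegfa gate.

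Dendritic cells had fewer heme and iron transcripts than macrophages. Of 32 members tested, 1 was higher and 14 lower in DCs, with 7.5% and 12.7% of 7268 genes as background, and the median log2 ratio was -0.67 against -0.03 for all genes. The higher member was the cytosolic superoxide dismutase Sod1, at 2.04-fold, and it reached 274 CPM in migratory DCs against 126 in macrophages. Hmox1 stood at 17.9 CPM in DCs, 42.5-fold (37.2 to 48.7) lower, Blvrb was 12.8-fold and the phagosomal metal transporter Slc11a1 11.1-fold lower, Fth1 4.35-fold and Ftl1 3.75-fold lower, each in 6 of 6 runs. The detoxifying transferases Mgst1 and Gstm1 stood at 6.08 and 2.76 CPM in DCs against 97.1 and 39.8 in macrophages, calls that were set by the filter. The log2 ratio of Mgst1 went from -4.00 to -6.33 without run 3. The macrophage transcripts Apoe and Lyz2 stood in DCs at 0.927% and 5.89% of their macrophage level and Hmox1 at 2.35%. Of 22 further iron and heme genes 10 were lower in DCs and 0 higher, and Cybb, the catalytic subunit of the phagocyte NADPH oxidase, was 4.47-fold lower.

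The DC types differed among themselves. Migratory DCs, the Ccr7-bearing cells on their way to lymph nodes, had 174 CPM of Slc7a11 (runs 80.2 to 251), cDC2 48.3 and cDC1 1.90. Gclc was likewise highest in migratory DCs, at 175 CPM with runs between 50.1 and 457, against 26.1 in cDC1. The epithelial transcripts Csn3 and Wfdc18 moved with this contrast. They stood at 13.9% and 6.61% of their tumor cell level in migratory DCs, 1.76% and 0.860% in cDC2, and 0.355% and 0.495% in cDC1. The epithelial keratin Krt19 did not, at 0.237% in migratory DCs, 0.260% in cDC2 and 0.203% in cDC1. Tumor cells had 1.38 CPM of Slc7a11 and 84.1 CPM of Gclc. The part of epithelial transcripts in these values was not tested. Thioredoxin reductase (Txnrd1) stood at 404 CPM in migratory DCs, 422 in cDC2 and 97.4 in cDC1, while its substrate Txn1 stood at 715, 275 and 975. The cystine importer and the reductase were thus low in cDC1, where thioredoxin itself was high. Fth1 was higher in cDC2 (9223 CPM) than in migratory DCs (3459) or cDC1 (2550).

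**Figure D3:**
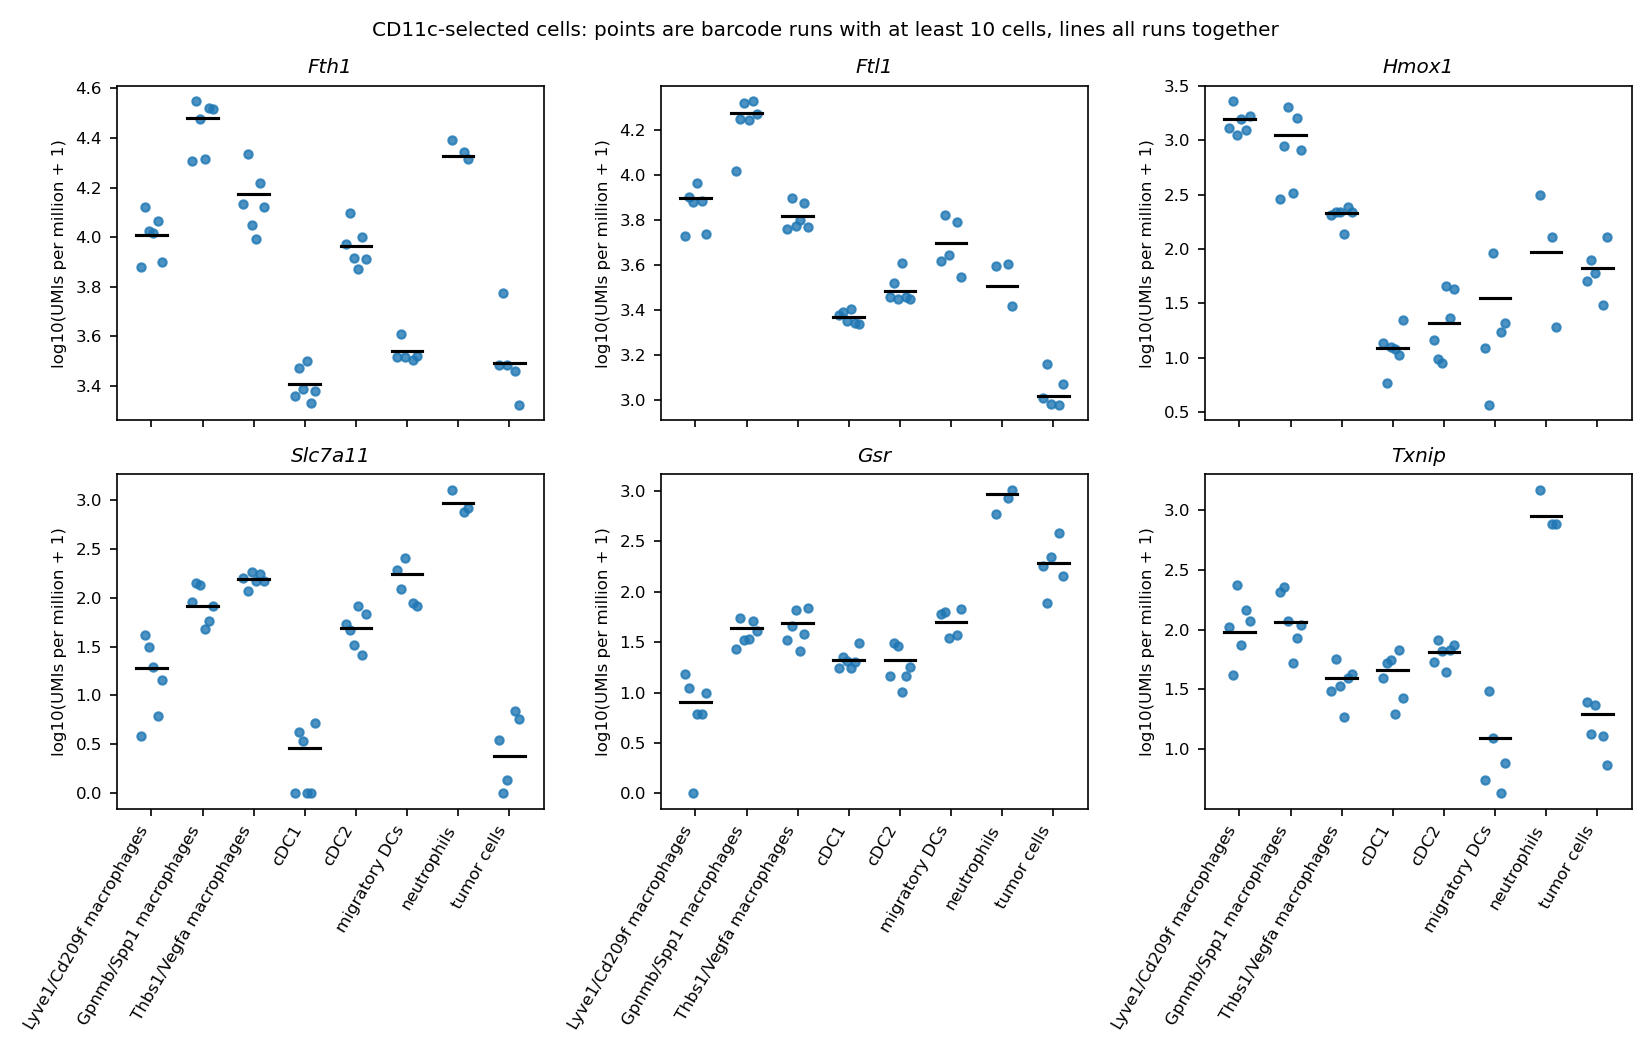
CPM of Fth1, Ftl1, Hmox1, Slc7a11, Gsr and Txnip in the gates of the CD11c+ matrix on log axes, with a point for each barcode run of at least 10 cells and a line for all runs together. Neutrophils stand above the other gates in Slc7a11, Gsr and Txnip, with all 3 of their runs at or above 743, 585 and 761 CPM.

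Neutrophils, short-lived phagocytes gated here on S100a8 and S100a9 among other markers, had a pattern of their own. Their S100a9 level of 18511 CPM followed from the gate. Of 33 members, 6 were higher and 14 lower than in macrophages, against 23.2% and 17.5% of 7394 genes. The share of higher members (18.2%) was near the background, and that of lower members (42.4%) above it. Gsr stood at 585, 852 and 1032 CPM in the 3 runs with enough neutrophils, against 42.6 in macrophages, 22.0-fold (19.3 to 25.1) higher. Slc7a11 stood at 1267, 743 and 816 CPM in the same runs against 123 in macrophages, 7.52-fold (6.62 to 8.51) higher. Both genes of cystine supply and glutathione recycling were thus highest in neutrophils among the 8 gates shown of this matrix. Txnip stood at 1481, 761 and 762 CPM against 64.3 in macrophages, 13.7-fold (12.0 to 15.6) higher. The other higher members were Tfrc (3.82-fold), Prdx6 (3.18-fold) and the iron exporter Slc40a1, whose call was set by the filter. Slc40a1 stood at 48.4 CPM on 14 UMIs against 5.20 in macrophages, a log2 ratio of 3.22 that became 2.41 without run 5.

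The gate held few UMIs, at a median of 2976 per cell against 12654 in macrophages. Thinned to 2000 UMIs per cell, Gsr was found in 68.4% of neutrophils and 7.56% of macrophages, and unthinned in 77.2% of neutrophils. Slc7a11 was found in 54.4% of thinned and 64.4% of unthinned neutrophils and in 17.1% of thinned and 45.7% of unthinned macrophages, while cDC1, with a median of 16387 UMIs, had it in 0.275% of thinned cells. Too shallow to enter were 22 neutrophils and 48 macrophages. Neutrophils stayed above macrophages in both genes at equal depth.

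Other members were lower in neutrophils. Ferritin was split, with Fth1 at 21227 CPM (runs 20562 to 24675) near the macrophage level of 20340 while Ftl1 was 3.55-fold lower at 3214 CPM. The light chain amounted to 0.151 of the heavy chain's UMIs in neutrophils, against 0.627 in Gpnmb/Spp1 macrophages and 1.44 in migratory DCs. Prdx1 was 5.99-fold and Hmox1 8.15-fold lower, and the log2 ratio of Hmox1 went from -3.03 to -4.14 without run 2. The low members Prdx3, Prdx4, Keap1, Blvra and Blvrb rested on 1 to 3 UMIs, so that the ratio for Blvrb was 16.0-fold with an interval of 5.49 to 77.8 and that for Prdx4 8.16-fold with 2.79 to 39.6. Gpx3 had 0 UMIs, which allows up to 10.4 CPM. Macrophage transcripts were also present in this gate, with Apoe at 6.81% and Lyz2 at 6.31% of their macrophage level, against 12.3% for Hmox1 and 28.2% for Ftl1. Their part in these values was not tested. Of the 6 phagocyte NADPH oxidase genes 4 were higher than in macrophages, Rac2 by 4.85-fold, and 1 was lower, Cybb, by 17.3-fold, where 23.2% and 17.5% of all genes were. Of 23 iron and heme genes 1 was higher, the metalloreductase Steap4 at 15.2-fold, and 10 were lower.

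Tumor cells were higher in a different set of these genes. Of 35 members, 7 were higher and 12 lower than in macrophages, with 23.3% and 14.8% of 8278 genes as background. Nqo1, the quinone reductase often read as an Nrf2 target, stood at 28.2 CPM against 2.46, a call set by the filter. Mgst1, a membrane-bound transferase, stood at 491 CPM (runs 374 to 635) against 97.1, 5.05-fold (4.80 to 5.32) higher. Gsr was 4.49-fold and glutathione synthetase (Gss) 2.37-fold higher, Gss passing the filter only through the tumor cells. Gpx4, which removes lipid peroxides, stood at 752 CPM, 2.03-fold higher, a call lost under 4 other settings. Gpx3 was 3.02-fold higher in 4 of 5 runs, with a log2 ratio of 1.60 that was 0.79 without run 1 and 2.24 without run 3, and Tfrc was 2.09-fold higher. The share of higher members was below that of all genes. Other glutathione genes were lower, the peroxidase Gpx1 by 2.73-fold and the transferase Gstm1 by 2.08-fold, so the glutathione members went both ways in tumor cells.

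The cystine importer was not among them. Slc7a11 rested on 7 UMIs in tumor cells, 1.38 CPM against 123 in macrophages, a call set by the filter. Its log2 ratio of -6.48 was -5.44 without run 3 and -7.09 without run 6. Fth1 was 6.55-fold, Ftl1 10.9-fold and Hmox1 11.6-fold lower, and Nfe2l2 3.15-fold lower at 128 CPM. Slc11a1 rested on 2 UMIs, 0.395 CPM against 163 in macrophages, and its call was also set by the filter. Its log2 ratio of -8.68 was -9.49 without run 1. In the T cell matrix the tumor cells also stood above the macrophages in Mgst1, at 667 CPM against 302, and in Nqo1, at 49.1 CPM against 4.88. There Gsr, Gss and Tfrc were past 2-fold as well. Gpx4, at 1037 against 546 CPM, and Gpx3, at 29.9 against 21.6 CPM, were higher but under 2-fold. Among the other pathway genes, malic enzyme (Me1), a source of NADPH, was 16.1-fold higher in tumor cells than in macrophages, and all 6 phagocyte NADPH oxidase genes were lower. Of 18 glutathione and repair genes 6 were higher and 3 lower, where 23.3% and 14.8% of all genes were.

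In the T cell matrix, where macrophages and CD8 T cells lay side by side, 24 of 34 members were higher in macrophages and 3 lower, with 22.0% and 22.7% of 7541 genes as background, and the median log2 ratio was 2.44 against -0.14. CD8 T cells were higher in Prdx6, a peroxiredoxin that works with glutathione (600.3 CPM, 2.97-fold), in Txnip (219 CPM, 2.74-fold) and in Tfrc (27.4 CPM, 2.58-fold). Fth1 stood at 38255 CPM in macrophages and 2658 in CD8 T cells, 14.4-fold apart, and Ftl1 at 23988 and 874, 27.5-fold apart. Of the further pathway genes, 13 of 22 in iron and heme handling and 8 of 14 in the Nrf2 and NADPH list were higher in macrophages, and 1 of each was lower. The steepest members were Slc11a1, Hmox1 (377-fold), Slc7a11 and Slc40a1, and of these calls all but that of Hmox1 were set by the filter. In CD8 T cells these stood at 0.163%, 0.265%, 0.283% and 0.287% of the macrophage level, close to the 0.230% of Apoe and 0.186% of Lyz2, which are macrophage transcripts, so the pooled CD8 values of these members were not read as expression.

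**Figure D4:**
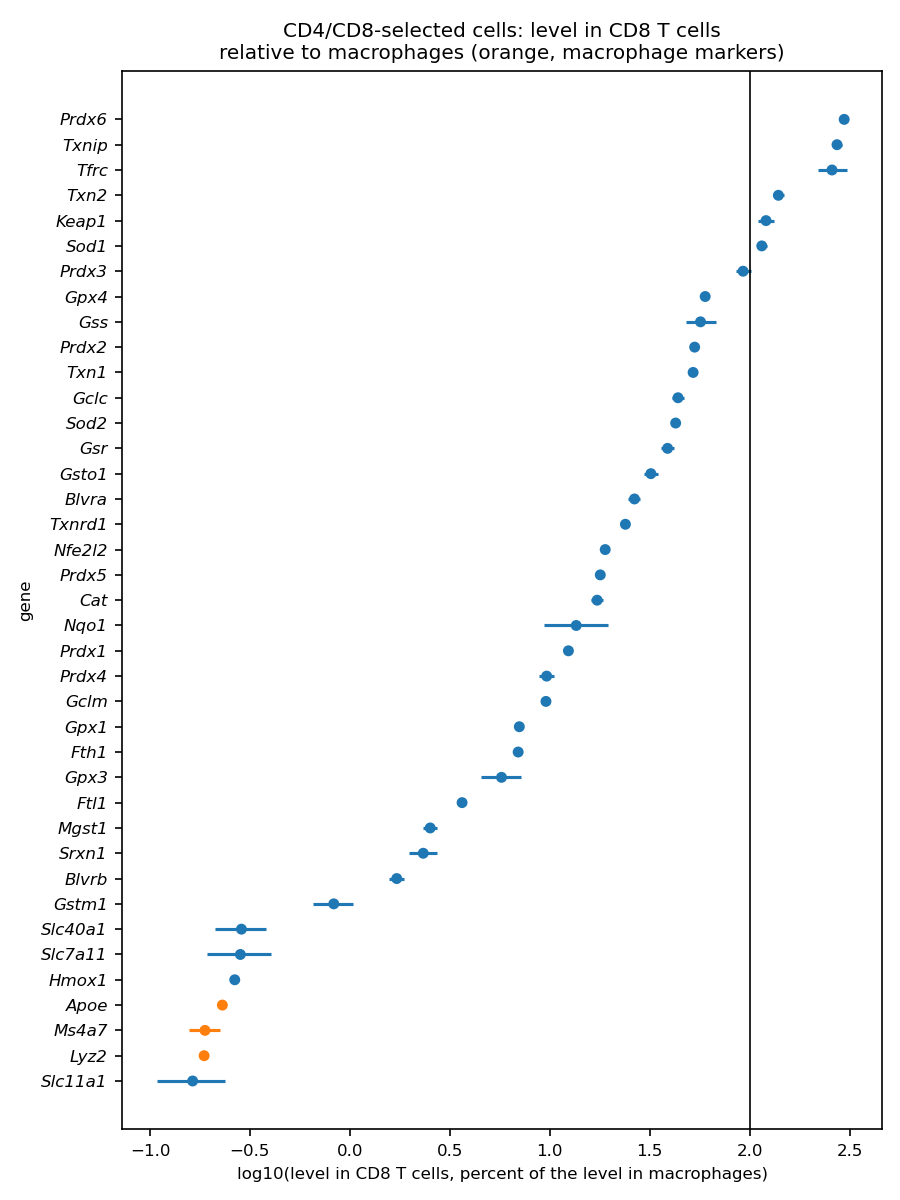
Level of each member in CD8 T cells as percent of its level in macrophages of the T cell matrix, on a log10 axis, with the macrophage transcripts Apoe, Lyz2 and Ms4a7 in orange. Slc11a1, Hmox1, Slc7a11 and Slc40a1 lie between 0.163% and 0.287%, beside the 3 macrophage transcripts, while Fth1 lies at 6.95%.

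Run 3 of the T cell matrix stood apart. Hmox1 in macrophages was 7026 CPM in run 3 and 699, 465, 600 and 243 CPM in runs 2, 4, 5 and 6, so the pooled value of 5785 CPM was that of run 3. Slc40a1, the iron exporter, was 240 CPM in run 3 macrophages and 39.5 in the other runs together, and Gclm 388 against 75.7. The ferritins differed less, Fth1 at 41711 against 23660 CPM and Ftl1 at 26367 against 13941. Among macrophage transcripts that are no members, Apoe was 42823 against 37242 CPM and Lyz2 31031 against 16461, so the ferritins were about as far apart as Lyz2, and Hmox1, Slc40a1 and Gclm further. Of the 406 macrophages in run 3, 219 were in the Gpnmb/Spp1 gate. In runs 2, 4, 5 and 6 these were 14 of 52, 10 of 36, 0 of 22 and 7 of 27. The mix of macrophage types thus differed between runs, and its part in these differences was not tested. Whether the run was a mouse, a genotype or a preparation cannot be told apart.

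The CD8 T cells of run 3 moved with its macrophages. Hmox1 was 92.4 CPM in run 3 CD8 T cells and between 1.39 and 3.64 in the other runs, Apoe was 545 against 23.0 and Lyz2 329 against 7.73. As a share of the run's own macrophage level, Hmox1 was 1.31%, Slc40a1 1.51%, Apoe 1.27% and Lyz2 1.06%, near 1 ratio for all of them. In the other runs together Slc11a1 stood at 0.0617%, beside Apoe at 0.0618% and Lyz2 at 0.0470%, while Hmox1 stood at 0.521%, Slc7a11 at 0.213% and Slc40a1 at 0.209%, above these transcripts. Hmox1 in those CD8 T cells was 2.83 CPM. Without run 3, Fth1 was 8.97-fold, Ftl1 16.0-fold and Hmox1 192-fold higher in macrophages than in CD8 T cells, and Gclc, which had been higher in macrophages, turned to 0.806-fold. Tfrc, higher in CD8 T cells, fell under 2-fold, at a log2 ratio of -0.74 for macrophages over CD8 T cells against -1.37 with all runs, and Slc11a1 went from 9.26 to 10.66.

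**Figure D5:**
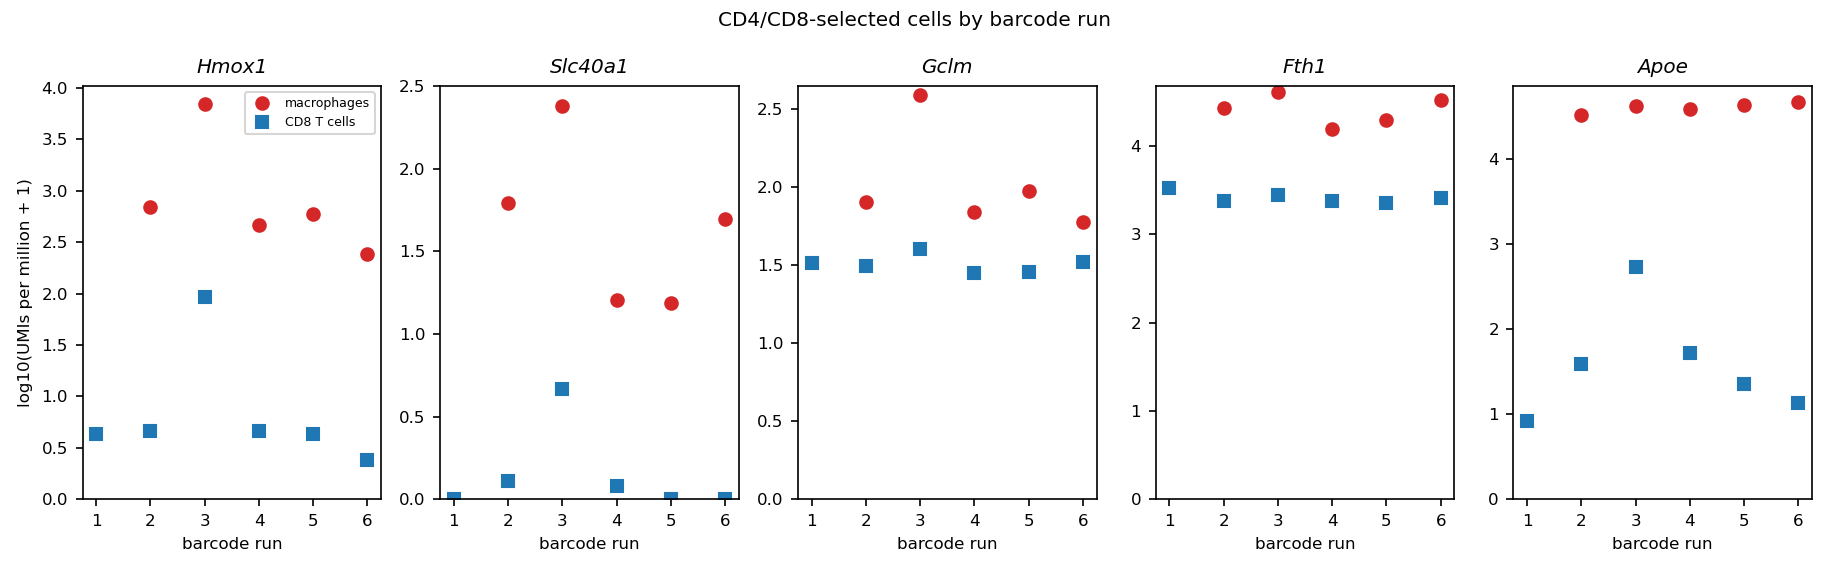
CPM of Hmox1, Slc40a1, Gclm, Fth1 and Apoe by barcode run of the T cell matrix, on log axes, for macrophages and for CD8 T cells. Run 3 is highest for Hmox1 in both cell types, at 7026 and 92.4 CPM, while CD8 T cells show little difference between runs in Fth1 (2779 in run 3 against 2639 CPM in the others).

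Regulatory T cells were higher than CD8 T cells in 2 of the 6 peroxiredoxins and in the transferrin receptor. Of 27 members, 5 were higher and 2 lower in Treg, with 11.4% and 5.53% of 7058 genes as background. Prdx4, the peroxiredoxin of the endoplasmic reticulum, stood at 112 CPM in Treg (runs 92.1 to 166, 72 UMIs) against 9.84 in CD8 T cells, 11.4-fold (8.80 to 14.5) higher in 3 of 3 runs. Srxn1 was 9.33-fold (4.88 to 16.4) higher on 13 UMIs. Prdx4 and Srxn1 passed the filter only through Treg, so the direction of these calls was fixed. Tfrc was 2.49-fold higher at 68.3 CPM, Prdx2 2.14-fold at 310 CPM and Gpx4 2.00-fold at 655 CPM. The Gpx4 call was lost under 9 other settings, that of Prdx2 under 3 and that of Tfrc under 1. The other peroxiredoxins were not called, with Prdx1 at 402 against 391 CPM, Prdx3 at 40.3 against 39.6, Prdx5 at 146 against 152 and Prdx6 at 337 against 600.3. Txnip was 3.44-fold lower at 63.6 CPM and Keap1 2.27-fold lower on 14 UMIs, the latter a call lost under 2 settings. The log2 ratio of Txnip went from -1.78 to -2.64 without run 1 and that of Srxn1 from 3.22 to 3.90 without run 4. Fth1 stood at 4632 CPM in Treg against 2658 in CD8 T cells. Of 15 glutathione and repair genes 3 were higher in Treg and 0 lower. The Treg gate had 114 cells and 3 runs with at least 10 cells.

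Within the CD8 T cells, cells in cycle, with Mki67 and Top2a (1110 cells), and cells with the inhibitory receptors Pdcd1 and Havcr2 (467 cells) were described side by side, with no ratio taken. Txn1 stood at 973 CPM in the cycling cells, with runs between 855 and 1119, and at 745 CPM in the Pdcd1/Havcr2 cells, with runs between 666 and 948, so the runs overlapped. Prdx4 stood at 30.0 CPM, with runs between 22.8 and 35.9, against 7.65 CPM, with runs between 0 and 15.8, and did not overlap. Tfrc stood at 47.4 CPM (runs 30.3 to 57.5) against 20.2 CPM (runs 12.1 to 28.5), and thus the peroxiredoxin of the endoplasmic reticulum and the iron importer were both higher in every run of the cycling cells.

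By gate of the CD11c+ matrix, the highest level of a member fell in Gpnmb/Spp1 macrophages for 10 of the 36, in Lyve1/Cd209f macrophages for 7, in neutrophils for 6, in tumor cells for 5, in Thbs1/Vegfa macrophages for 3, in migratory DCs for 3 and in cDC1 for 2. The same share over all genes was not taken, so these counts are not a result about the members. For some members the highest gate barely differed from the next, as for Prdx3 (1.01-fold), Nfe2l2 (1.01-fold) and Keap1 (1.04-fold), with overlapping intervals.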

How the data were processed

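Per the file headers and values, the deposited matrices held raw UMI counts per gene and cell; the authors made them with Cell Ranger 3.0.2 on mm10, as their processing notes give it, while for the annotation and the cell filter the sources used here name none. Each matrix pooled 6 samples with no map from barcodes to samples, so no genotype was compared and no p-value is given. A cell entered with 200 or more detected genes, which removed 341 and 295. Cell types were gated on raw marker UMIs; macrophages, for example, needed 3 of 8 base markers. Cells in more than 1 gate were left out (27 and 8), no doublet caller was run, and a gate needed 50 cells. The Treg gate planned with a Cd4 UMI held 43 cells, so a wider gate without it is reported, a change made after seeing the data. Lyve1/Cd209f macrophages, DCs and neutrophils of the T cell matrix and T cells of the CD11c+ matrix were too few.

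UMIs were summed per gate and expressed as counts per 1000000 (CPM). Intervals are exact Poisson for levels and exact conditional binomial (Clopper-Pearson) at 95% for ratios, and cover counting error only. A gene was called at a ratio of 2 where the mean CPM of both gates was at least 10, in 8 comparisons over all genes. A further comparison is not reported here. Shares of cells were also taken after thinning each cell to 2000 UMIs. Members and lists were chosen with earlier results of these data known. All 36 members were eligible to be named, and other pathway genes were named past 4-fold. The ratio code was tested on simulated data. Gene positions are those of GENCODE M21 on mm10 and promoters those of RefSeq on GRCm38.p6. Python 3.11.15, numpy 2.4.6, scipy 1.17.1, pandas 2.3.3 and matplotlib 3.10.9 were used. Alternatives were leaving out each run, stricter gates and cell filters, means over cells, other scalings and no CPM filter.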

Additional observations from a re-analysis of the deposited data

How the results depend on the processing

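No paired analysis was possible because the deposited columns carry no replicate number and no test was run. Averaging each cell's CPM, and not summing UMIs, gave 4 higher members in Thbs1/Vegfa over Lyve1/Cd209f macrophages, 1 lower in Gpnmb/Spp1 over Thbs1/Vegfa macrophages, and 3 higher in Treg. A denominator without mitochondrial, ribosomal protein, Malat1 and ferritin UMIs gave 3 higher in Treg, as did median-of-ratios scaling. With no CPM filter 10 were higher in Treg. Raising the gate markers by 1 UMI gave 1 lower in Treg. In settings chosen after seeing the data, the Treg gate with Cd4 gave 4 lower, leaving out the highest 5% of UMIs gave 0 higher in DCs, and leaving out macrophages with epithelial UMIs gave 1 lower in Gpnmb/Spp1 over Thbs1/Vegfa macrophages. The cause was not tested.

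Leaving out each run in turn gave, of higher and lower members, 10 to 10 and 2 to 3 in Gpnmb/Spp1 over Lyve1/Cd209f macrophages, 2 to 2 and 5 to 6 in Thbs1/Vegfa over Lyve1/Cd209f macrophages, and 9 to 10 and 0 to 2 (2 without run 2) in Gpnmb/Spp1 over Thbs1/Vegfa macrophages. The same counts over macrophages were 0 to 1 (0 without run 5) and 14 to 14 in DCs, 6 to 6 and 14 to 15 in neutrophils, and 6 to 7 and 10 to 12 in tumor cells. In the T cell matrix they were 21 to 24 and 2 to 3 for macrophages over CD8 T cells, and 4 to 5 and 2 to 3 for Treg. The member Gclc reversed in macrophages over CD8 T cells without run 3, at a log2 ratio of -0.31 against 1.19 with all runs and up to 1.34 without another run. Without run 3, Prdx1, Prdx5, Cat, Gclm and Gsr stood in that comparison at 2.06, 1.66, 1.55, 1.32 and 0.77. Neutrophils without run 6 were not run, since under 50 cells were left. Of 116 member calls, 8 fell under 2-fold with the highest 5% of UMIs left out, 9 with a mean over cells and 6 with the reduced denominator. The calls lost under most settings were Gpx4 in Treg (9 settings), Fth1 in Gpnmb/Spp1 over Thbs1/Vegfa macrophages (7), and Gstm1 and Tfrc in tumor cells (5 each). The median log2 ratio of all genes moved with scaling in tumor cells over macrophages, from 0.26 to 0.37 and 0.07, and in macrophages over CD8 T cells, from -0.14 to -0.45 and 0.09.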
